A study of Mus musculus with 6 samples.

Results

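The genes described here are 7 Th17 genes, the transcription factors Rora and Ahr, the cytokines Il17a, Il17f and Il22, and the receptors Il23r and Il1r1. They were read through every probe set that carries 1 of these symbols alone in the platform annotation, which gave 14 of the 45101 probe sets of the array and 4 of the 7 genes. Rora had 9 probe sets, Ahr 2, Il17a 1 and Il1r1 2. Il22 shared its 1 probe set with a second symbol, Iltifb, and that probe set does not count as a member. The expression of Il17f and Il23r was not analysed here.

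The arrays hold RNA of CD4+YFP+ T cells sorted from lymph nodes of mice, 3 Het and 3 KO. Het mice were FoxP3-GFP-hCre x ROSA26R-YFP with Dicerwt/lox, and KO mice carried the same Cre and reporter with Dicerlox/lox, so the deletable allele is on 1 copy of Dicer in Het and on 2 in KO. In both groups Foxp3 drives the Cre, and YFP stays on in every cell where Cre has acted, so the sort takes cells that express Foxp3 together with any that once did. The labels do not give the age of the mice, do not say whether animals were pooled and do not say that the arrays A, B and C of a group are separate animals, so a p-value here covers the spread among these 6 samples alone, and part or all of that spread may be technical.

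Th17 cells are helper T cells that make IL-17A, IL-17F and IL-22 and act against fungi and bacteria at epithelial surfaces. RORα, made from Rora, is among the factors that act on Il17a and Il17f in these cells. Regulatory T cells and Th17 cells both need TGF-β to form in peripheral tissue, and Foxp3 protein can bind RORα and hold back its activity. Ahr is a receptor for dietary and microbial ligands that promotes IL-22, while signals through the IL-1 and IL-23 receptors keep Th17 cells going.

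In cells of KO mice Rora was read lower on 6 of its 6 tested probe sets (57.2% of all probe sets tested had a negative difference), and Il1r1 was read higher on its 1 tested probe set. The group means of Il17a differed by less than the spread among the KO arrays, and the bright Ahr probe set overlapped widely between them. None of the 10 tested member probe sets passed the test (limma, adjusted p under 0.05; 4 had an unadjusted p under 0.05). Among all 29507 probe sets tested 1.78% passed, and 19.1% had an unadjusted p under 0.05. The 4 other member probe sets, 3 of Rora and 1 of Il1r1, were too dim to be tested. The median log2 difference (KO minus Het) of the 10 was -0.39, against -0.03 over all probe sets tested, but 6 of the 10 are probes of the same gene. The members were also chosen with earlier results of these data known.

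The proteins of Rora and Ahr bind short DNA elements, and the promoter windows of Rora, the member with the clearest difference, and of Il17a, a gene that RORα acts on, are shown for that reason. The windows run from 250 bases before to 50 after a start site, in RefSeq's GRCm38.p6. The motifs searched were AGGTCA, the core letters of the site of ROR proteins and of other nuclear receptors, and GCGTG, the core of the element bound by Ahr with Arnt, on both strands and with no overlap between the motifs. In the Il17a window (chr1:20730655-20730954, + strand) the capitals mark AGGTCA as read on the opposite strand, at position -120 from the start. In the Rora window (chr9:68653536-68653835, + strand) the capitals mark GCGTG as read on the opposite strand, at position -167.
Il17a: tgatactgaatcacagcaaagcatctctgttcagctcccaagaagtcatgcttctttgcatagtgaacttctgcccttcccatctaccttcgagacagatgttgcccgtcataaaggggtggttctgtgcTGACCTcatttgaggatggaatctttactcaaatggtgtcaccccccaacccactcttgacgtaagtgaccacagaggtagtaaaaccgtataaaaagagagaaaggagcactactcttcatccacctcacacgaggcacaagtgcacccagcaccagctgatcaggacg
Rora: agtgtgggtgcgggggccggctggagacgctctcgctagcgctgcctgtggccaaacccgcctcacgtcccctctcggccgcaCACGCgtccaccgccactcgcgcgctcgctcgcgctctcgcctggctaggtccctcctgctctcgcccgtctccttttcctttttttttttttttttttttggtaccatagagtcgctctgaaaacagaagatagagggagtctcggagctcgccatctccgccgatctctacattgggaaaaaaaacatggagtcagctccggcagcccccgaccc

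Of the 7 genes 6 had a window (Ahr did not), and the letters AGGTCA stood in those of Il17a, Il17f and Il23r, 3 of the 6. Over all 32851 windows of that length 16.3% held it. The Ahr core GCGTG stood in the windows of Rora and Il1r1 and in 32.4% of all windows. A match is a description of these letters and does not show that a protein binds there.

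Rora is the orphan nuclear receptor RORα. The probe set 1455165_at read 967, 1306 and 1308 on Het arrays A, B and C, against 592, 677 and 886 on the same-lettered KO arrays. Every KO array lay below every Het array, with KO C closest to Het A. The means were 1194 ± 196 in Het and 718 ± 151 in KO (SD, n = 3), a log2 difference of -0.74 ± 0.20 (SE; adjusted p = 0.132 by limma, unadjusted p = 0.0109), with a 95% interval of -1.23 to -0.25. Het was thus 1.67 times KO on this probe set, and the difference did not pass the test.

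The probe set 1436325_at gave 920, 1349 and 1290 in Het, against 795, 711 and 892 in KO. These groups did not overlap either, but Het A and KO C lay next to each other. The log2 difference was -0.56 ± 0.18 (SE; adjusted p = 0.183 by limma). The probe set 1436326_at, which is dimmer, gave 253, 373 and 253 in Het, against 221, 152 and 236 in KO, which is a log2 difference of -0.53 ± 0.24 (SE; adjusted p = 0.302 by limma). Its Het B array stood above the other Het arrays and its KO B array below the other KO arrays.

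Groups overlapped on the other tested Rora probe sets. The probe set 1424034_at gave 703, 1399 and 1275 in Het, against 611, 617 and 913 in KO, so KO C lay above Het A (log2 -0.62 ± 0.31, SE; adjusted p = 0.357 by limma). The probe set 1420583_a_at gave 581, 942 and 807 in Het, against 498, 429 and 637 in KO, again with KO C above Het A (log2 -0.57 ± 0.23, SE; adjusted p = 0.268 by limma). The dimmest tested one, 1458129_at, gave 82.7, 111 and 74.4 in Het, against 87.8, 72.2 and 73.6 in KO (log2 -0.18 ± 0.18, SE; adjusted p = 0.635 by limma), and its 95% interval ran from -0.62 to 0.25. Of the 6 tested Rora probe sets 3 had all KO arrays below all Het arrays, and over all probe sets tested 14.9% did. The 6 read the same RNA samples, so they are repeated readings of 1 gene.

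**Figure D1:**
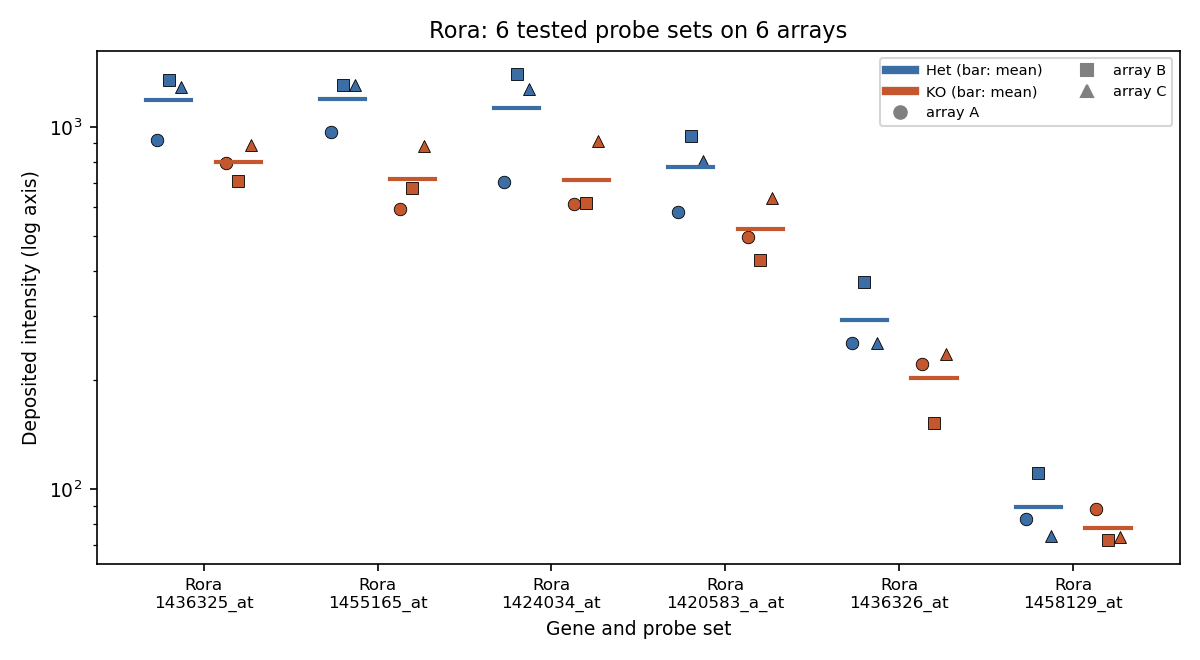
Deposited intensity (vertical, log axis) of the 6 tested Rora probe sets (horizontal) on the 3 Het arrays (blue) and 3 KO arrays (orange), with marker shape for array letter and a bar for each group mean. The KO mean lies below the Het mean on each probe set, and KO C lies above Het A on 1424034_at and 1420583_a_at.

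The Rora probe sets were also set side by side array by array. Taking each tested probe set against its own Het mean on the log2 scale, the median over the 6 was -0.32 in Het A, 0.32 in Het B, 0.11 in Het C, -0.59 in KO A, -0.80 in KO B and -0.27 in KO C. On this median KO C stood slightly above Het A, and the other Het arrays stood above all KO arrays. Het B was the highest of all 6 arrays on 5 of the 6 probe sets, and KO B was the lowest on 4. Pearson's r between pairs of these probe sets over the 6 arrays was 0.32 to 0.98, which describes readings of the same samples.

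Foxp3 did not run alongside Rora within KO. It read 9960, 8945 and 9769 in Het, against 5453, 9417 and 5420 in KO (log2 -0.55; adjusted p = 0.285 by limma), so KO B had Het-like Foxp3 and the lowest Rora on most probe sets. Array B of each group also had the highest summed CD8 T cell, B cell, NK cell and myeloid markers of that group. The summed intensity of the CD8 markers Cd8a and Cd8b1 was 651 to 2257 in Het and 636 to 4415 in KO, and that of 4 B cell markers was 516 to 1625 in Het and 743 to 2045 in KO. Without both B arrays the log2 difference of 1455165_at was -0.63 (adjusted p = 0.367 by limma), that of 1436325_at -0.37 and that of 1424034_at -0.34. It shrank further on 1420583_a_at, to -0.28, and on 1436326_at, to -0.15, and 1458129_at turned to 0.04. Without Het A alone, 1424034_at gave -0.93. In bulk RNA fewer cells with Rora and less Rora RNA per cell cannot be told apart.

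The remaining 3 Rora probe sets were too dim to be tested. The probe set 1424035_at read 13.99 to 14.44 on the 6 arrays, 1458145_at 5.43 to 6.16 and 1441085_at 3.06 to 3.20, with the same value of 3.12 in Het C and in all KO arrays. On the 6 arrays 1424035_at lay at the 31.9 to 33.2 percentile of the probe sets, 1458145_at at 8.99 to 10.6 and 1441085_at at 0.693 to 0.824. Their values gave no tested difference. Which transcripts of Rora each probe set reads is not known here.

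Ahr, the aryl hydrocarbon receptor, is a ligand-activated factor found in Th17 cells and also in regulatory T cells. Its bright probe set 1422631_at read 850, 3067 and 2268 in Het, against 1087, 1731 and 1901 in KO. All KO arrays fell within the range of the Het arrays, whose lowest array, Het A, was also the lowest of all. The log2 difference was -0.24 ± 0.52 (SE; adjusted p = 0.840 by limma), with a 95% interval of -1.52 to 1.04, which leaves room for a difference in either direction. It was -0.79 without Het A (adjusted p = 0.349 by limma), and it turned to 0.14 without Het B, 0.0045 without KO A and 0.05 without both B arrays. The dim probe set 1450695_at read 22.7, 25.2 and 22.1 in Het, against 18.7, 19.8 and 20.7 in KO, which is a log2 difference of -0.24 ± 0.09 (SE; adjusted p = 0.227 by limma). Its groups did not overlap, but it lay below the 41st percentile of the probe sets on all arrays.

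Il17a, the cytokine by which Th17 cells are known, read 62.1, 64.0 and 59.4 in Het, against 68.1, 60.1 and 79.1 in KO on its 1 probe set. KO C was the highest array, KO B lay among the Het arrays, and the groups overlapped. The means were 61.8 ± 2.34 in Het and 69.1 ± 9.52 in KO (SD, n = 3), which is a log2 difference of 0.15 ± 0.12 (SE; adjusted p = 0.556 by limma). The 95% interval of -0.14 to 0.45 is narrower than those of the tested Rora probe sets and of the bright Ahr probe set, but the difference moved to 0.05 without KO C and to 0.25 without KO B. On every array the probe set lay near the middle of all probe sets, whose array medians were 58.1 to 61.5. The probe set that Il22, a cytokine acting on epithelia, shares with Iltifb read 19.2 to 23.9 in Het and 22.2 to 24.6 in KO (log2 0.05; adjusted p = 0.838 by limma), and it cannot be given to either gene.

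Il1r1, the signalling receptor for IL-1, went the other way from Rora. Its probe set 1448950_at read 17.2, 32.6 and 38.0 in Het, against 39.5, 64.0 and 59.0 in KO. All KO arrays lay above all Het arrays, KO A by a small margin over Het C. The means were 29.3 ± 10.8 and 54.2 ± 12.9 (SD, n = 3), a log2 difference of 0.94 ± 0.35 (SE; adjusted p = 0.234 by limma, 95% interval 0.07 to 1.81) that did not pass the test. Without Het A it was 0.59 (adjusted p = 0.386 by limma), and with log2 values under 5 set to 5 it was 0.64. The other Il1r1 probe set read 5.75 to 6.22 on the 6 arrays and was not tested.

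IL-1 receptors are also carried by phagocytes, and markers of these cells were read beside Il1r1. The summed intensity of 6 myeloid markers was 281 to 601 in Het and 455 to 1738 in KO. Most of that range came from Lyz2, the lysozyme gene, at 50.6, 381 and 97.4 in Het, against 232, 1408 and 441 in KO. Cd14 read 2.87 to 2.99 and Itgam 5.49 to 5.91 on all arrays, and Csf1r and Adgre1 differed by log2 0.06 and 0.22 (limma, unadjusted p = 0.486 and 0.110). S100a8, a neutrophil and monocyte gene, read 82.3 in KO B, which also had the highest Il1r1, and 8.72 to 11.5 on the other arrays. The part of such cells in the Il1r1 difference was not tested.

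**Figure D2:**
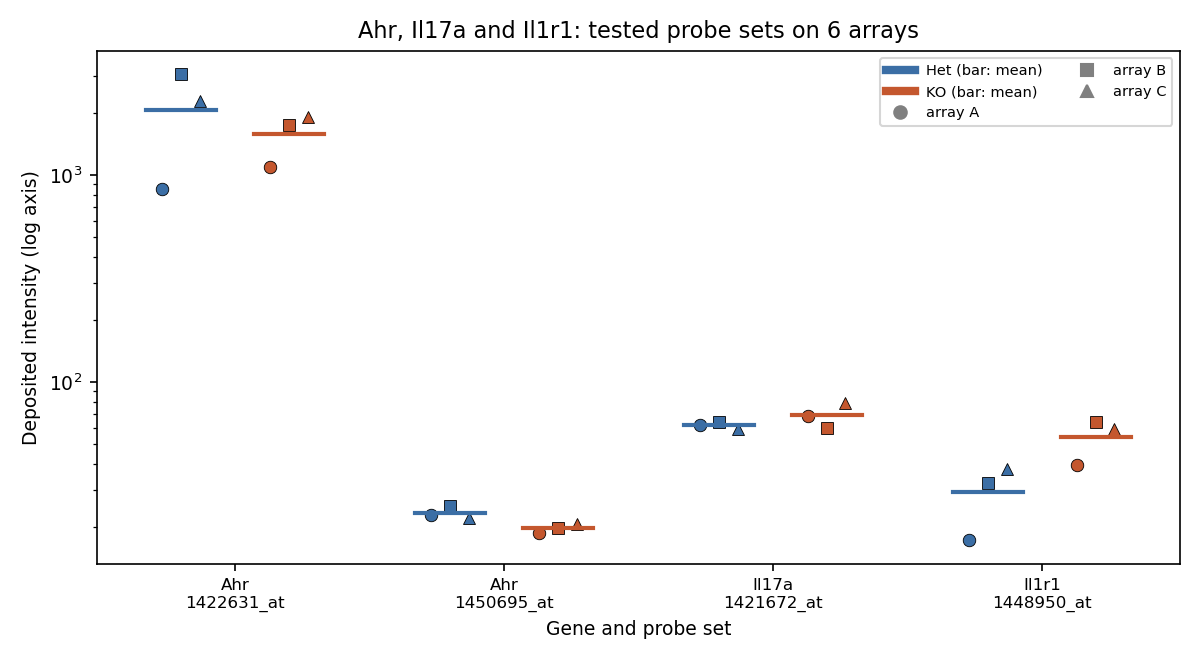
Deposited intensity (vertical, log axis) of the tested probe sets of Ahr, Il17a and Il1r1 (horizontal) on 3 Het arrays (blue) and 3 KO arrays (orange), with marker shape for array letter and a bar for each group mean. Het A is the lowest point for bright Ahr at 850 and for Il1r1 at 17.2, and the Il17a points all lie between 59.4 and 79.1.

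**Figure D3:**
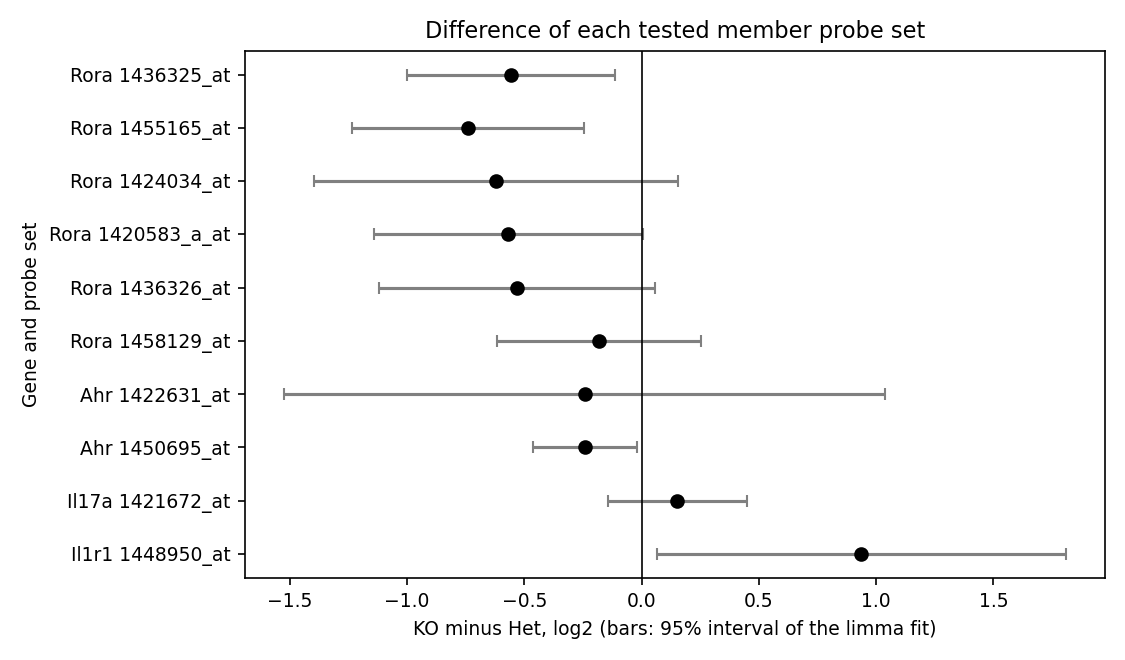
Log2 difference, KO minus Het (horizontal), of the 10 tested member probe sets (vertical), with the 95% interval of the limma fit as bars. The intervals of Rora 1436325_at and 1455165_at and of the dim Ahr probe set lie below 0, that of Il1r1 lies above 0, and no probe set passed after adjustment over all probe sets.

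The genes whose log2 values ran most like each member over the 6 arrays were looked up among 13279 other genes, each by its brightest probe set. For Rora (1436325_at) these were Cd5, a brake on the T cell receptor (Pearson's r = 0.99), and Zdhhc2, a palmitoyltransferase (r = 0.98), and 122 genes had r above 0.9. For Ahr they were Far1 (r = 0.99) and Krtcap2 (r = 0.98), for Il17a Mcl1, a survival factor (r = 0.99), and Rundc3b (r = 0.99). For Il1r1 they were Lgals3, the gene of galectin-3, and Fam185a (both r above 0.99), and 496 genes had r above 0.9. Lgals3 read 255, 1072 and 1470 in Het, against 1908, 6136 and 4856 in KO. These r values are a description over 6 arrays, and the genes compared share arrays and normalization.

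Other genes of the Th17 pathway were read from 8 lists of 70 genes, of which 55 were measured. Of these 3 rose (Socs3, Tbx21 and Il10), 1 fell (Egr2) and 51 did not pass (limma, adjusted p under 0.05), and 40 of the 55 had a positive difference. Over 13280 measured genes 1.37% rose and 0.956% fell, 43.4% had a positive difference, and by an unadjusted p under 0.05 10.7% were higher and 11.6% lower. The counts by list given next stand against these shares. The median log2 difference of the 55 was 0.28, against -0.03 over all measured genes. The lists were chosen with earlier results of these data known, so the share and median of these 55 genes are a description only. With any 1 array left out at most 1 of these genes was called, and without both B arrays 0 were.

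Among 11 measured partner factors 0 passed (limma; 5 higher and 0 lower by an unadjusted p under 0.05), and 10 had a positive difference. Stat3, which carries the IL-6, IL-21 and IL-23 signals, read 5309, 5382 and 5833 in Het, against 7608, 8419 and 9552 in KO (log2 0.63; adjusted p = 0.0587 by limma). Every KO array was above every Het array on this brightest of its probe sets. The other Stat3 probe sets gave 0.39, 0.49 and 0.30 and did not pass (adjusted p = 0.504, 0.392 and 0.364 by limma). Groups overlapped on those at 0.39 and 0.30. Nfkbiz, a nuclear IκB protein that assists RORα at the Il17a gene, read 16440, 12371 and 12417 in Het, against 22380, 20189 and 26364 in KO (log2 0.75; adjusted p = 0.0869 by limma). Its other probe sets gave 0.17 and 1.15, the latter, the dimmest, with all KO arrays above all Het arrays (adjusted p = 0.108 by limma).

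Among 9 factors reported to restrain Th17 cells 2 rose, 1 fell and 6 did not pass. Socs3, an inhibitor of Stat3 signals, rose by log2 1.95 ± 0.18 (SE; adjusted p = 0.0222 by limma), from 4432 to 6137 in Het to 17897 to 24964 in KO. Tbx21, the Th1 factor, rose from 383, 565 and 454 in Het to 1698, 2925 and 1668 in KO (adjusted p = 0.0317 by limma). Egr2, a factor induced by antigen receptor signals, fell from 12979, 10506 and 14845 to 6564, 5239 and 5829 (log2 -1.11; adjusted p = 0.0424 by limma). A dimmer Egr2 probe set gave log2 -0.77, with all KO arrays below all Het arrays, and did not pass (adjusted p = 0.0527 by limma).

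Of 7 measured other cytokines Il10, an anti-inflammatory cytokine that some Th17 cells also make, was the 1 that rose, from 74.5, 137 and 182 in Het to 755, 746 and 1624 in KO (adjusted p = 0.0462 by limma). By an unadjusted p under 0.05 (limma) 3 were higher, Il10 among them, and 0 lower. Il21 and Lif, named here although they did not pass, gave log2 1.56 and 1.54 (adjusted p = 0.145 and 0.153 by limma), with all KO arrays above all Het arrays. Of 10 measured receptor chains and homing receptors 0 passed (limma; 5 higher and 1 lower by an unadjusted p under 0.05). Tgfbr3, a TGF-β coreceptor, gave log2 1.32 (adjusted p = 0.0602 by limma) and Il10rb, a chain shared by the IL-10 and IL-22 receptors, gave 0.60 (adjusted p = 0.0760), with dimmer probe sets at 0.20 and -1.12. Ccr6, the chemokine receptor typical of Th17 cells and singled out after its values were seen, read 926, 2471 and 856 in Het, against 660, 176 and 366 in KO. All KO arrays lay below all Het arrays, and the log2 difference of -1.84 ± 0.62 (SE; adjusted p = 0.199 by limma) did not pass.

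In the IL-1 receptor family 0 of 6 measured genes passed by the brightest probe set (limma; 2 higher and 0 lower by an unadjusted p under 0.05). Il18rap, a chain of the IL-18 receptor, gave log2 1.41 (adjusted p = 0.0746, limma). Il1rn, the secreted antagonist that occupies Il1r1 without signalling, gave 0.37 on its brightest probe set (adjusted p = 0.0897, limma). A dimmer Il1rn probe set rose from 15.1, 21.4 and 22.0 in Het to 115, 133 and 158 in KO (log2 2.80 ± 0.19, SE; adjusted p = 0.0170 by limma), and the dimmest of its probe sets gave 0.73. That dimmer probe set was singled out after its values were seen.

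Genes around Ahr and Rora gave 0 calls. Of 4 measured Ahr partners and targets (limma; 0 at an unadjusted p under 0.05) Tiparp, a target that turns Ahr down, gave log2 0.60 and Arnt, the partner of Ahr, -0.11 (adjusted p = 0.662 and 0.723) by their brightest probe sets. Another Tiparp probe set gave 0.93, with all KO arrays above all Het arrays (limma, unadjusted p = 0.0433, adjusted p = 0.246), and other Arnt probe sets gave -0.25 and 0.08. Cyp1a1, the classical target of Ahr, and Ahrr, its repressor, were too dim to be tested. Of 3 measured genes of the ROR and REV-ERB family and their clock targets (limma; 1 higher at an unadjusted p under 0.05) Npas2 gave log2 1.36 (adjusted p = 0.157, and -0.03 on its other probe set) and Arntl -0.24 (adjusted p = 0.599). Of 5 measured cytokines that induce or shape Th17 cells (limma; 1 higher at an unadjusted p under 0.05) Ebi3, a chain of IL-27 and IL-35, gave log2 1.02 (adjusted p = 0.0607), and Il23a read 15.6 to 17.0 on all arrays.

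**Figure D4:**
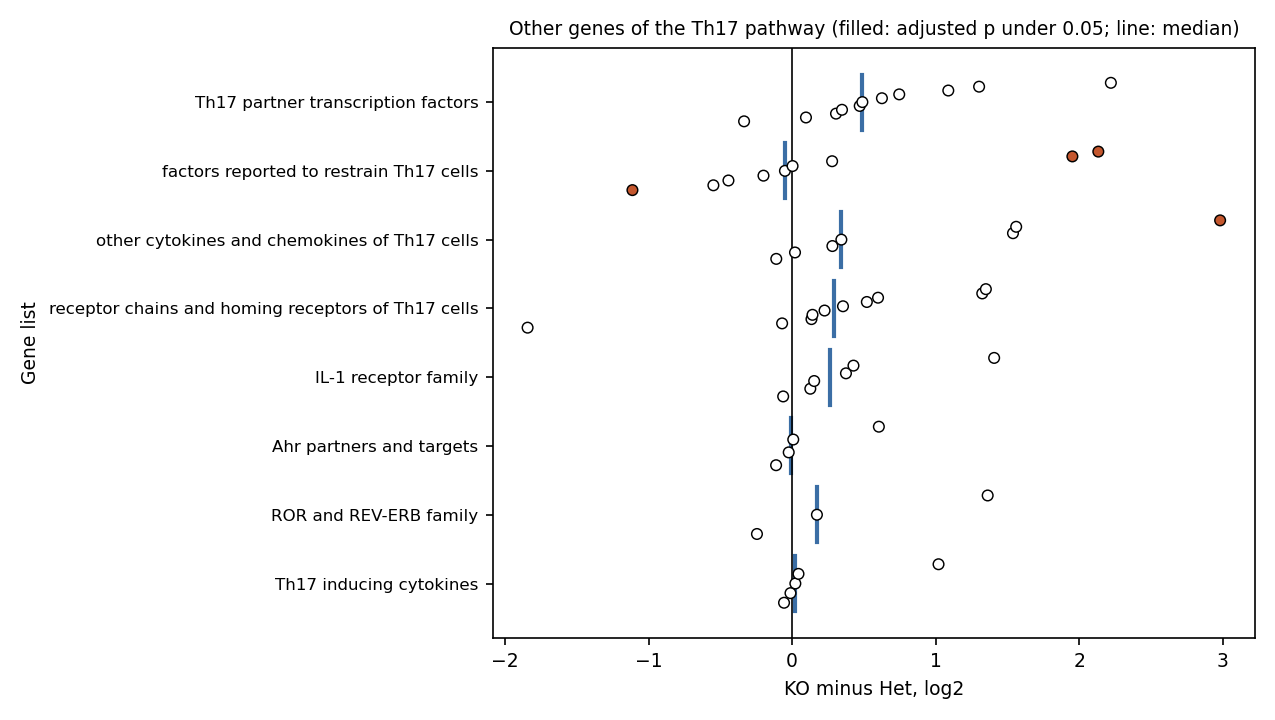
Log2 difference, KO minus Het (horizontal), of 55 measured genes in the 8 lists of other Th17 pathway genes (vertical), 1 point per gene, filled where the adjusted p was under 0.05, with a line at each list's median. The filled points are Egr2 at -1.11, Socs3 at 1.95, Tbx21 at 2.13 and Il10 at 2.98, and the partner factors have a median of 0.49.

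The sorted cells were also checked against their labels and for other cells that carry the same genes. Cd4 and the CD3 chains were high on all arrays, with 9 T cell and regulatory T cell markers summing to 152810 to 164360 in Het and 145650 to 164580 in KO. Within this sum Ctla4, Il2ra and Cd4 gave log2 0.76, 0.67 and 0.12. Foxp3, Ikzf2, Cd3d, Cd28, Cd3g and Cd3e gave -0.55, -0.24, -0.23, -0.21, -0.17 and -0.11. None of these markers passed (limma, adjusted p from 0.0686 to 0.747). Gamma delta T cells, a source of Il17a outside CD4 cells, were read by 4 of 8 listed markers (Sox13, Blk, Cd163l1 and Zbtb16), which summed to 424 to 496 in Het and 403 to 413 in KO. Innate lymphoid markers (4 of 6 listed) summed to 2684 to 4233 in Het and 3357 to 4995 in KO, and the sums hold genes that went opposite ways. Among them Cxcr6, a chemokine receptor that T cells also carry, read 217, 772 and 614 in Het, against 1383, 1726 and 2383 in KO (log2 1.93; adjusted p = 0.129 by limma), while Tnfsf11 gave -0.49, Kit 0.63 and Ncr1 read 13.7 to 15.1. NK markers (4 of 5 listed) summed to 182 to 906 in Het and 936 to 4512 in KO, mostly through Eomes and Klrd1, which T cells can also make. Stromal markers summed to 1200 to 1502 in Het and 1626 to 1895 in KO, nearly all from Pecam1. Dicer1 gave log2 -0.03 and -0.52 on its 2 probe sets (limma, adjusted p = 0.891 and 0.145), and since the position of these probes in the gene is not known here, they do not check the genotype. The part of other cells in the member values was not tested.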

How the data were processed

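RNA extracted with TRIzol was amplified, biotin-labelled and hybridised to 6 arrays, per the labels' protocols. The values are the deposited probe set intensities, normalized by the authors with GCRMA, per the labels, with no software version named there. Their range shows a linear scale, so log2 was taken before any fit. GCRMA subtracts background by probe sequence, which pushes dim probe sets toward a floor.

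Of 45101 probe sets, 64 controls and 1 with gaps were dropped, and the 29507 whose log2 value was above 4 on at least 3 of 6 arrays were tested. Of all probe sets 34958 had 1 symbol in the platform annotation, 932 several and 9211 none. The fit of KO against Het used limma 3.58.1 (R 4.3.3; lmFit, eBayes, two-sided, without covariates), adjusted by Benjamini-Hochberg over all probe sets tested, and 525 passed at 0.05. The 3 arrays per group limit the precision. Array medians were 58.1 to 61.5. Within groups the arrays correlated across probe sets at 0.989 to 0.993 (Pearson), and between groups at 0.982 to 0.990.

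For other genes the probe set with the highest mean stood for the gene. Named were all member probe sets, Dicer1, Foxp3 and Cd4, from each list the genes past the threshold or else up to 2 by smallest p, and the 2 genes most like each member. The members and lists were chosen with earlier results of these data known. On simulated data (20 runs, 29507 probe sets, 200 changed) the fit recovered 7.50% of probe sets changed by log2 0.5, 44.3% of those changed by 1 and 78.9% of those changed by 2, and 4.78% of its calls were false. The simulated noise was normal and independent between probe sets and arrays, with the spread seen here taken as true. These rates may therefore not hold for the real arrays. Alternatives were quantile normalization, median centring, other filters, a floor at log2 5, an intensity trend, array weights, the replicate letter as a block, averaging the probe sets of a gene and leaving out arrays. Plots were drawn with matplotlib 3.10.9.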

Additional observations from a re-analysis of the deposited data

How the results depend on the processing

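None of the member probe sets passed the test under any of the 15 alternatives (limma; 0 to 4 at an unadjusted p under 0.05). The 5 brighter Rora probe sets kept a negative difference in all 75 of these values, from -0.93 to -0.15, with adjusted p from 0.107 to 0.678. The 75 are refits of 5 readings of 1 gene on the same arrays, so they are not independent. Other filters, the floor, the intensity trend and the replicate block left the log2 difference of these probe sets as it was. In those fits the sign could not turn, so only the other alternatives bear on it. Il1r1 stayed positive (0.59 to 1.17) and Il17a too (0.05 to 0.27), while the dim Ahr probe set stayed negative (-0.28 to -0.18). Il1r1 was not tested under the stricter filter, so it has 14 of these values, and the dim Ahr probe set has 13, since it also drops out with the floor. Signs turned for the bright Ahr probe set (-0.79 to 0.14 with 1 array left out), to 0.14 without Het B, 0.0045 without KO A and 0.0499 without both B arrays, and for Rora 1458129_at, to 0.0357 without both B arrays; the cause was not tested.

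The 525 calls among all probe sets became 957 with array weights, 0 with the replicate block, 0 without both B arrays and 0 to 176 with 1 array left out (limma; 4227 to 6456 at an unadjusted p under 0.05 in these fits). The 4 calls among other Th17 pathway genes became 6 with the stricter filter and 6 with array weights, 2 with no filter on dim probe sets, 0 with the replicate block, 0 without both B arrays and 0 to 1 with 1 array left out. Fits on fewer arrays have fewer residual degrees of freedom. The labels do not say whether shared letters pair the samples. Deviations of same-lettered arrays from their group means correlated at 0.28 for A, -0.17 for B and 0.01 for C. Those of differently lettered arrays correlated at -0.45 to 0.37. With so few arrays per group these values cannot decide whether the letters pair the samples. Array B had the highest CD8, B cell, NK cell and myeloid marker sums in both groups, and a shared effect of the letters was not tested. For the block only counts are therefore given here. At this signal over background, intensities near or below the array median, such as those of Il17a and Il1r1, limit what can be read of their differences.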
